A study of Mus musculus with 4 samples.

Results

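The epidermal growth factor (EGF) family was examined in the skin of E16.5 mouse embryos that overexpress the transcription factor Ovol2, as 7 ligand genes and 3 receptor genes chosen by name. The ligands are Areg, Ereg, Hbegf, Tgfa, Btc, Egf and Epgn, and the receptors are Egfr, Erbb2 and Erbb3. Of these 10 genes 9 had a probe set annotated to that gene alone, 1 probe set each, out of 19938 genes with such a probe set. All 9 passed the filter on dim genes, which left 14953 genes to be tested. Areg had no listed probe set and was not analysed here.

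There were 2 Ovol2 BT arrays and 2 control arrays, each hybridised with skin RNA pooled from 2 mice at E16.5, a stage of late gestation. Ovol2 BT embryos carried TRE-Ovol2-Flag, a tetracycline-responsive Flag-tagged Ovol2 transgene, together with K5-tTA, a transactivator driven by the keratin 5 promoter of basal keratinocytes. Controls carried TRE-Ovol2-Flag alone or were wild type, so no control had the transactivator. The Ovol2 BT arrays are labelled with strain FVB/N and the controls with CB6F1, although the labels also describe littermates, so that genotype and labelled strain cannot be told apart. The comparison asks which transcripts differ early, at an age chosen by the submitters because the skin of both genotypes still looked much alike.

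Ligands of this family are made as membrane proteins, and proteases such as Adam17 release the active growth factor. The ligand binds a receptor of the ErbB family, receptors pair, and signals run through RAS and the MAP kinases to the nucleus. In epidermis the pathway is known for keeping basal keratinocytes dividing, for wound closure and for hair follicle shape, and mice that lack Tgfa or carry a weak Egfr have wavy hair.

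The arrays were read as PLIER intensities, and differences are Ovol2 BT minus control on the log2(intensity + 16) scale. Ovol2 itself read 12.93 and 12.96 on the Ovol2 BT arrays and 7.59 and 8.29 on the controls on that scale, so every array fits its genotype label, and its relative Ovol1 differed by 0.06 (SE 0.18). The keratinocyte markers Krt5 and Krt10 and the fibroblast marker Col1a1 were bright on all 4 arrays (intensities of at least 7523), which fits the tissue label. Ovol2 BT replicate 2 stood apart: 893 genes read over 2-fold below the average of the remaining arrays there, against 33 on Ovol2 BT replicate 1 and 30 and 43 on the controls. All arrays are labelled female, but 3 Y-linked genes averaged log2 levels of 9.77 on Ovol2 BT replicate 1 and 9.58 on control replicate 1, against 4.59 on Ovol2 BT replicate 2 and 5.75 on control replicate 2. Xist, the other check of the sex label, had log2 levels of 8.36 and 10.80 on Ovol2 BT replicates 1 and 2. On control replicates 1 and 2 they were 7.07 and 13.16. The labels do not say that a replicate number marks a litter or batch. In bulk skin, a change in the number of cells of a type and a change in RNA per cell cannot be told apart.

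None of the 9 measured members of the EGF family was called in Ovol2 BT skin by limma's moderated test. With Benjamini-Hochberg adjustment over all genes, 4 genes or 0.0268% were called. A member that was not called is not thereby shown to be unchanged. At an unadjusted p under 0.05, 1 member stood out, the ligand Epgn, against 4.23% of all genes. The median difference over the 9 members was -0.05, and over all genes tested it was 0.03. The arrays of the genotypes did not overlap for 1 member that was higher in Ovol2 BT skin (Epgn), against 20.1% of all genes, and for 1 that was lower (Egfr), against 14.1%. Over either direction the share of all genes was 34.2%, so 2 of 9 members without overlap is no more than the background.

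**Figure D1:**
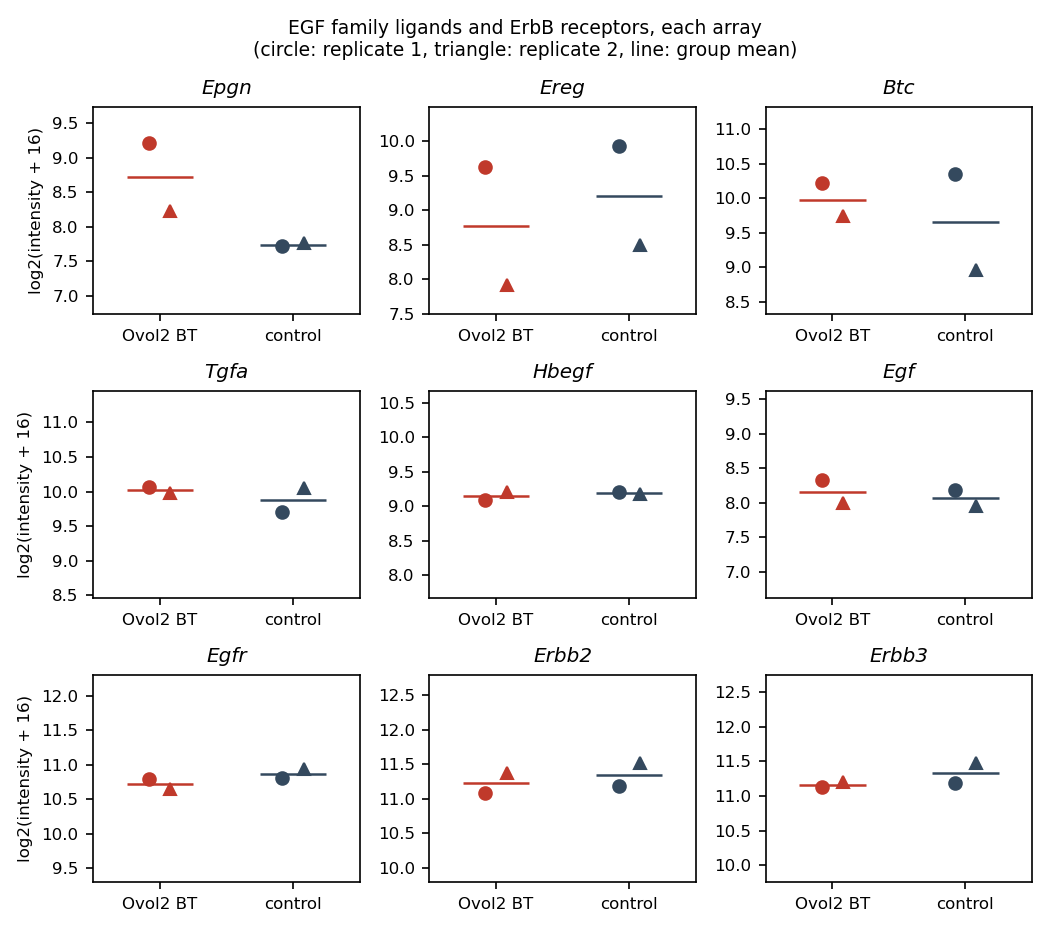
Log2(intensity + 16) of each measured EGF family gene, with the Ovol2 BT arrays (red) left of the control arrays (dark). Circles are replicate 1, triangles replicate 2, and lines group means; every panel spans the same log2 range around the gene's own mean. Epgn reads higher on both Ovol2 BT arrays, while Ereg and Btc differ most between replicates.

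Epgn encodes epigen, a ligand of the EGF receptor in epithelia. Its intensities were 578 and 285 on the Ovol2 BT arrays and 195 and 201 on the control arrays. Both Ovol2 BT arrays lay above both controls, but they were far apart from each other while the controls nearly coincided. Epgn averaged a log2 level of 8.72 ± 0.69 in Ovol2 BT skin and 7.74 ± 0.03 in control skin (SD, n = 2 arrays each). The difference was 0.98 (SE 0.33, 95% interval 0.14 to 1.82), a fold of 1.98, with an unadjusted p of 0.0291 and an adjusted p of 0.906 in limma. It did not pass. The size rests on Ovol2 BT replicate 1: without that array the difference was 0.49 (limma adjusted p = 0.094), and without Ovol2 BT replicate 2 it was 1.47 (limma adjusted p = 0.00543), each with a lone Ovol2 BT array taken to vary like the controls. Over all alternatives run the adjusted p of Epgn ranged from 0.00543 to 0.9999. Between arrays of the same replicate number it was 1.49 for replicate 1 and 0.48 for replicate 2.

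Markers of several cell types also differed between the genotypes, in either direction. Of 9 periderm markers, genes of the transient outer layer of fetal epidermis, 8 were higher on both Ovol2 BT arrays and 1 was lower on both. Their summed intensity was 28208 to 28440 in Ovol2 BT skin and 11488 to 12979 in control skin, with no marker at 0. Of 8 basal keratinocyte markers, 4 were lower and 1 higher without overlap, with sums of 26260 to 27332 in Ovol2 BT skin and 39832 to 41939 in control skin, and none at 0. A list of plasma proteins made by liver and yolk sac, added after the values were seen, had 10 of 11 genes higher on both Ovol2 BT arrays, with sums of 6198 on Ovol2 BT replicate 1, 3989.8 on Ovol2 BT replicate 2 and 1687 to 1744 on the controls, and none at 0. Of its 11 genes 4 were below the filter on dim genes. That list, like Epgn, was highest on Ovol2 BT replicate 1, but as it was added with the values known, the likeness is no separate result. Of 12 macrophage and myeloid markers 8 were higher on both Ovol2 BT arrays and none lower, with sums of 14187 to 15689 in Ovol2 BT skin and 10527 to 12124 in control skin. Of 8 hair placode and follicle markers 2 were higher and 5 lower without overlap, with sums of 7389 to 8658 in Ovol2 BT skin and 8508 to 8808 in control skin. No marker of either list was at 0, and 1 of the 8 hair markers was below the filter on dim genes. Over all genes tested, which leaves out the dim genes, 20.1% were higher and 14.1% lower in Ovol2 BT skin without overlap. Counted over tested genes alone, 7 of 7 plasma protein genes were higher, and of 7 hair markers 2 were higher and 4 lower. The part of these markers in the Epgn values was not tested.

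The 3 genes whose pattern over the 4 arrays lay closest to that of Epgn, by Euclidean distance between log2 values centred on each gene's mean, were Ttr (0.13), Prr9 (0.24) and Slc7a11 (0.26). Ttr encodes transthyretin, a plasma carrier of thyroid hormone, and is 1 of the plasma protein genes just described. Prr9 encodes a proline-rich protein of the epidermal differentiation complex, and Slc7a11 the cystine and glutamate exchanger. Their differences were 1.09 for Ttr, 0.97 for Prr9 and 0.77 for Slc7a11. None of these passed in limma (adjusted p of 0.891, 0.853 and 0.906). All were higher on both Ovol2 BT arrays, which follows from choosing them for their likeness to Epgn and is no separate result.

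Epgn lies in a block of ligand genes. In the RefSeq annotation of GRCm38.p6, Epgn, Ereg, Areg and Btc follow each other on chromosome 5 with no other protein-coding gene between them. The 250 bases before the start of Epgn, which gave the largest difference, and of Btc, the other measured gene of the block with a RefSeq promoter, are shown so that both can be set beside the values. They lie at chr5:91027267-91027516 on the plus strand for Epgn and at chr5:91402995-91403244 on the minus strand for Btc, in GRCm38.p6 from RefSeq. They are written 5′ to 3′, and capitals mark a match to the TATA box, the only motif of the 3 searched on both strands that either window held.
Epgn: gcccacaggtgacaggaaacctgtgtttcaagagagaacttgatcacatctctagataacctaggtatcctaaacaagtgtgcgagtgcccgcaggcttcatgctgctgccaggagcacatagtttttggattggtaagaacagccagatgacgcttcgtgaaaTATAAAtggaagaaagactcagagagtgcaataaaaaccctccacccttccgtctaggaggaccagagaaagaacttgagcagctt
Btc: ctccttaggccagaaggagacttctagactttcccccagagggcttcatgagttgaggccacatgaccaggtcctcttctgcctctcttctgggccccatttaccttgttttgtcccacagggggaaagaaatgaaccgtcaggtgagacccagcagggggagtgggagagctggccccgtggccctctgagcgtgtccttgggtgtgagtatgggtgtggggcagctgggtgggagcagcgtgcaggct

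The core sequence known to be bound by the Ovol zinc fingers is CCGTTA. It was found in none of 8 promoter windows of 7 members (Areg, Btc, Egf with 2, Epgn, Tgfa, Egfr and Erbb2), and in 2.18% of 32841 windows of all genes. The TATA box, searched as TATAAA, was in 2 of the 8, those of Epgn and Areg, against 12.4% of all windows; in Epgn it starts 86 bases before the gene. The site of AP-1 factors, TGACTCA, was in 0 of the 8, against 4.46%. Ereg, Hbegf and Erbb3 were not among the promoters searched. These matches describe the letters in the windows only.

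Ereg encodes epiregulin, a ligand of EGFR and ErbB4 that keratinocytes release. Its intensities were 778 and 226 on the Ovol2 BT arrays and 958 and 345 on the control arrays. Within each genotype replicate 1 was more than 2-fold above replicate 2, and the genotypes overlapped. The log2 gap (replicate 2 minus replicate 1) was -1.72 in Ovol2 BT skin and -1.43 in control skin. Averaged over the genotypes its size was 1.57, larger than in 99.9% of the genes tested, whose median was 0.22. Ereg averaged 8.78 ± 1.21 in Ovol2 BT skin and 9.21 ± 1.01 in control skin (SD, n = 2 each), a difference of -0.44 (SE 0.70, 95% interval -2.19 to 1.31, limma adjusted p = 0.932). Between arrays of the same replicate number it was -0.29 for replicate 1 and -0.58 for replicate 2. Without Ovol2 BT replicate 2 the difference was 0.42, and without control replicate 1 it was 0.28. The interval is wide enough to hold a difference of more than 1 in either direction.

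Btc encodes betacellulin, another ligand of EGFR and ErbB4. Its intensities were 1171 and 842 on the Ovol2 BT arrays and 1294 and 484 on the control arrays. Replicate 1 was again the higher array in each genotype, and both Ovol2 BT arrays fell between the controls. The gap was -0.47 in Ovol2 BT skin and -1.39 in control skin. The control gap was larger than in 99.8% of genes, and the Ovol2 BT gap larger than in 73.6%. Btc differed by 0.32 between genotypes (SE 0.48, 95% interval -0.88 to 1.52, limma adjusted p = 0.927). Between arrays of the same number it was -0.14 for replicate 1 and 0.78 for replicate 2, so the direction depended on the arrays compared. Without control replicate 2 the difference was -0.38. Within each genotype Ereg and Btc were thus higher on the array with Y-linked signal, Btc less so in Ovol2 BT skin. Skeletal muscle markers also differed within genotypes. The sum of 10 genes was 29819.7 and 57776 on Ovol2 BT replicates 1 and 2, with none at 0. On control replicates 1 and 2 it was 54674 and 31725. The part of sex and tissue makeup in the Ereg and Btc values was not tested.

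**Figure D2:**
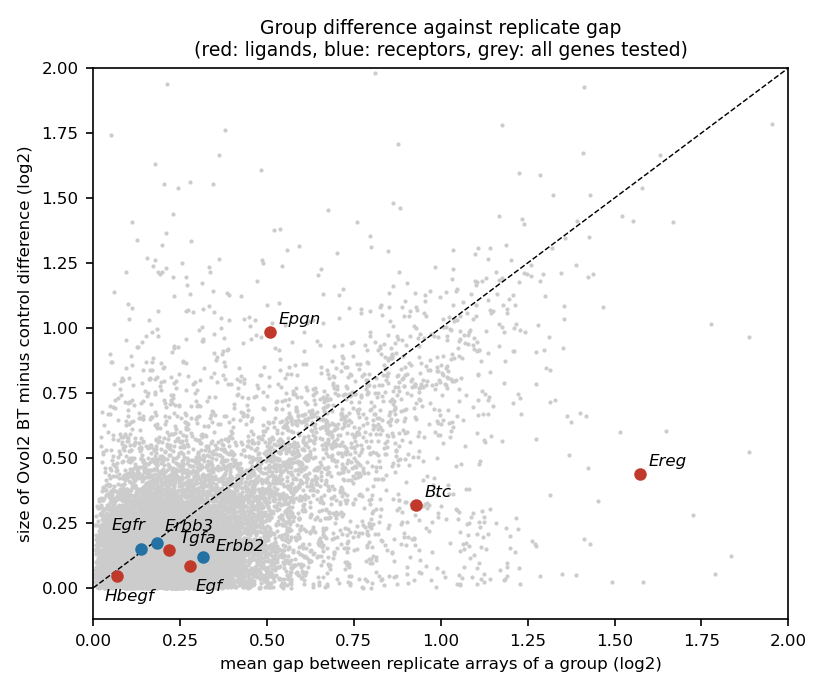
Size of the Ovol2 BT minus control difference (vertical, log2) against the mean size of the gap between the 2 arrays of a genotype (horizontal, log2), for EGF family ligands (red), receptors (blue) and all genes tested (grey; 16 genes lie beyond the axes). The dashed line marks equal values. Ereg, at a gap of 1.57, and Btc, at 0.93, lie far right of the line, and Epgn, at 0.51 with a difference of 0.98, lies above it.

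The other ligands had differences closer to 0. Tgfa encodes transforming growth factor alpha, which keratinocytes make for themselves. Its intensities were 1059.5 and 998 on the Ovol2 BT arrays and 819 and 1049 on the control arrays. The Ovol2 BT arrays lay within the range of the controls or just above it, so the genotypes overlapped. The difference was 0.15 (SE 0.21, 95% interval -0.38 to 0.67, limma adjusted p = 0.925).

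Hbegf encodes the heparin-binding ligand that is induced in wounded epidermis. It read 528 and 572 on the Ovol2 BT arrays and 573 and 563 on the control arrays. It had the smallest gap between replicates of the 9 members (0.07), and the smallest difference, -0.05 (SE 0.18, 95% interval -0.50 to 0.41, limma adjusted p = 0.967). Egf, the founding ligand, made mainly in salivary gland and kidney, read 304 and 239.6 on the Ovol2 BT arrays and 276 and 233 on the control arrays. Replicate 1 was the higher array in each genotype and the genotypes overlapped, with a difference of 0.09 (SE 0.19, 95% interval -0.40 to 0.57, limma adjusted p = 0.945). For Hbegf and Egf the intervals leave out a difference of 1 in either direction, as they do for Tgfa, whereas those of Epgn, Ereg and Btc do not.

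The 3 receptors all had small negative differences. Egfr, the receptor of these ligands, read 1764 and 1589.9 on the Ovol2 BT arrays and 1779 and 1942 on the control arrays. Both Ovol2 BT arrays were below both controls, by very little for replicate 1. Egfr averaged a log2 level of 10.72 ± 0.11 in Ovol2 BT skin and 10.87 ± 0.09 in control skin (SD, n = 2 each). The difference was -0.15 (SE 0.17, 95% interval -0.57 to 0.27, limma adjusted p = 0.91), -0.01 between the replicate 1 arrays and -0.29 between the replicate 2 arrays.

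Erbb2, the receptor that binds no known ligand of its own and pairs with the others, read 2148 and 2646 on the Ovol2 BT arrays and 2307 and 2911 on the control arrays. Replicate 2 was higher in each genotype, the reverse of Ereg and Btc, and the genotypes overlapped. Its difference was -0.12 (SE 0.19, 95% interval -0.61 to 0.37, limma adjusted p = 0.933).

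Erbb3, a neuregulin receptor with a weak kinase that is also used by Schwann cell precursors, read 2216 and 2342 on the Ovol2 BT arrays and 2325 and 2837 on the control arrays. The arrays overlapped narrowly, and control replicate 2 was the high one. The difference was -0.17 (SE 0.17, 95% interval -0.59 to 0.25, limma adjusted p = 0.906), the largest of the receptors. The genes closest to Erbb3 over the 4 arrays were Btg1 (distance 0.01), Rdh14 (0.03) and Slc2a12 (0.03), none of which passed. Of 8 melanocyte markers 4 were lower in Ovol2 BT skin without overlap and 0 higher. The shares of all genes were 14.1% lower and 20.1% higher. Summed melanocyte intensities were 6519 to 6629.6 in Ovol2 BT skin and 7419 to 8162 in control skin. Of 7 Schwann cell and nerve markers 2 were higher and 1 lower without overlap, the lower one being below the filter on dim genes. They overlapped in sum, with 4257 to 4370.4 in Ovol2 BT skin and 3867 to 4394 in control skin. No marker of either list was at 0, and their part in the Erbb3 values was not tested.

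**Figure D3:**
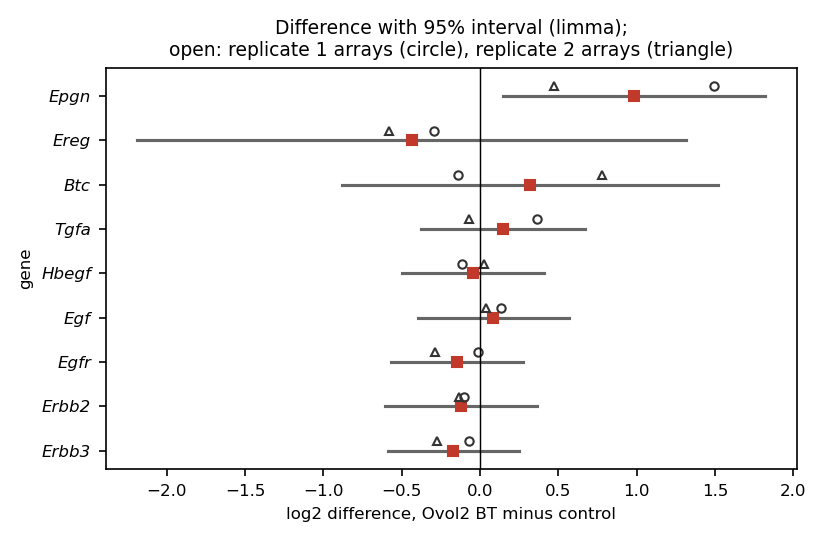
Ovol2 BT minus control difference (log2) of each measured member, as a red square with its 95% interval from limma (grey line). Open circles and triangles are the differences between the replicate 1 arrays and between the replicate 2 arrays. Epgn is at 0.98, and the other 8 members lie between -0.44 and 0.32 with intervals that cross 0.

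Set against their replicates, 7 of the 9 members differed less between genotypes than between the arrays of a genotype, Epgn and Egfr being the exceptions. The same share over all genes was not counted, so this describes the members only and does not set them apart. The direction was the same on both replicate numbers for 6 members, positive for Epgn and Egf and negative for Ereg, Egfr, Erbb2 and Erbb3, and opposite for Btc, Tgfa and Hbegf. Replicate numbers are not known to mark pairs, so these signs are a description only.

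Other genes of the pathway were taken from 5 lists with 79 genes, of which 74 had a probe set and 73 were tested. None of the 73 was called in limma, and 1 (Etv4) had an unadjusted p under 0.05. Without Ovol2 BT replicate 1, where 2453 of all genes were called, 13 of the 73 were called too, and without any other single array 0 were. The genotypes did not overlap for 14 that were higher and 11 that were lower in Ovol2 BT skin, 34.2% of those tested, against 34.2% of all genes. The neuregulins, ligands of Erbb3 and Erbb4, and Erbb4 had a median difference of -0.12 over 4 genes tested, with Nrg4 at -0.37 and Nrg2 at -0.16. Nrg3 was below the filter.

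Genes that shed or process the ligands, such as the metalloproteases and their inhibitor Timp3, had a median of 0.14 over 12 genes. Timp3 was at 0.28 and Adam10 at -0.42, a value of 0.09 without Ovol2 BT replicate 2. Adam17, the main sheddase of these ligands, was at -0.22 (SE 0.26). Feedback inhibitors had a median of -0.01 over 19 genes, with Spred1, an inhibitor of RAS signalling, at -0.63 and Socs4 at -0.51. Errfi1, an inhibitor that binds the EGFR kinase, was at -0.10 (SE 0.12). The adaptors and the RAS-MAPK relay had a median of -0.02 over 17 genes tested of 22 listed, with the exchange factor Sos2 at -0.60 and the kinase subunit Pik3ca at -0.56.

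For Spred1, Socs4, Sos2, Pik3ca and Adam10, Ovol2 BT replicate 2 was the low array, with differences on the replicate 2 arrays of -1.14, -1.03, -0.92, -0.99 and -0.82. On the replicate 1 arrays they were -0.13, 0.00 (0.00434), -0.27, -0.13 and -0.02. These 5 genes thus were low on the array where 893 genes read over 2-fold below the rest.

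Growth factor response genes had a median of 0.08 over 21 genes. Of these 15 were positive, against 8140 of all 14953 genes tested. On both Ovol2 BT arrays 8 were higher, against 20.1% of all genes, and 2 were lower, against 14.1%. Etv4, an ETS factor induced by receptor kinase signals, read 342 and 589 on the Ovol2 BT arrays and 195 and 166 on the control arrays. Both Ovol2 BT arrays were above both controls. Its difference was 1.25 (SE 0.28, 95% interval 0.54 to 1.96), with an unadjusted p of 0.00577 and an adjusted p of 0.703 in limma, so it did not pass. Its close relative Etv5 was at -0.23 (SE 0.22). Ptgs2, which encodes an inducible prostaglandin synthase, was at -0.72 (SE 0.42), with intensities of 255 and 181 on the Ovol2 BT arrays and 235 and 562 on the control arrays, so that control replicate 2 alone was high. The immediate early genes Egr1 at 0.20 (SE 0.16) and Fos at -0.26 did not pass either.

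**Figure D4:**
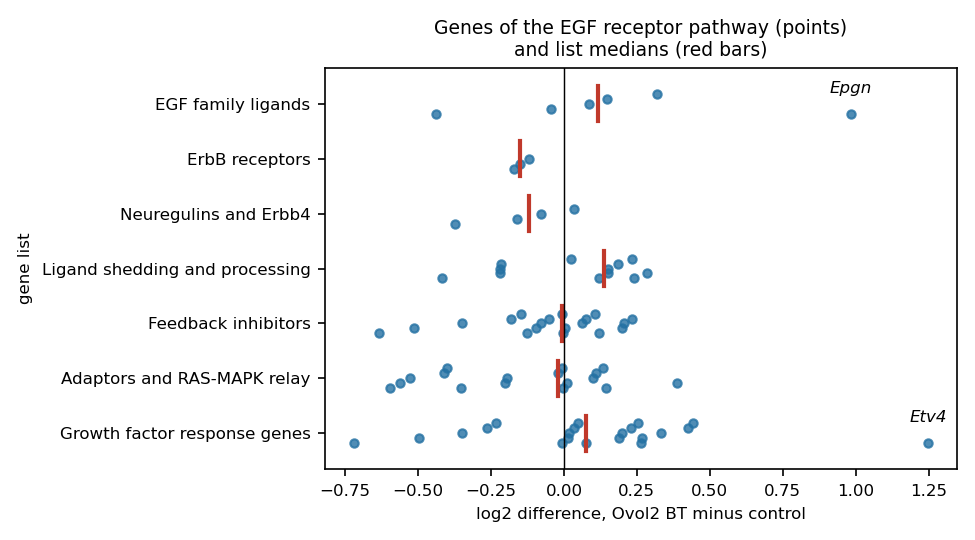
Ovol2 BT minus control differences (log2) of the tested genes of each list, from the ligands at the top to growth factor response genes at the bottom. Points are genes, red bars list medians. Most genes lie within 0.6 of 0, and Epgn (0.98) and Etv4 (1.25) are the genes furthest to the right.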

How the data were processed

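Per the submitters' processing notes, the authors summarised each probe set with PLIER 2.0 in Affymetrix Expression Console 1.1.1, and the deposited values are linear intensity values. How arrays were normalised against each other, and on which genome build, is not given in the sources used here. Of 35557 probe sets 21789 carried a single gene symbol; symbols were brought up to date through Entrez numbers in RefSeq (GRCm38.p6), which held 21698 of them, leaving 19938 genes.

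Values were analysed as log2(intensity + 16), which shrinks differences of dim genes, without renormalisation. A gene was represented by its brightest probe set, and the dimmest 25% of genes (log2 level below 7.32) were dropped. With limma 3.58.1 (R 4.3.3), genotype was fitted on all 4 arrays with an intensity trend, 2 residual and 3.45 prior degrees of freedom, a two-sided moderated test and Benjamini-Hochberg adjustment over 14953 genes; a call needed an adjusted p under 0.05. Exact permutation of 2 against 2 arrays reaches 0.333 at best and was not run. Precision is limited by the number of arrays, which have no read depth. The steps were tested on simulated data. The table held 0 columns of other samples.

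Named genes were all members, the called or else the 2 most different genes of each pathway list, the 3 genes closest to the leading ligand and the leading receptor, and Ovol1 and Ovol2. Adam17, Errfi1, Etv5, Egr1 and Fos were added after their values were seen. Members and lists were chosen with earlier results of these data known. The alternatives tried are given with their effects in the closing section.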

Additional observations from a re-analysis of the deposited data

How the results depend on the processing

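No member was called in any of the alternatives run (quantile normalisation, median centring, cyclic loess, offsets of 1 and 64, no filter, a 50th percentile filter, the mean of a gene's probe sets, no intensity trend, array weights, the replicate number as a block, each array left out), except Epgn without Ovol2 BT replicate 2. The number of members called ranged from 0 to 1 with 1 array left out, their median difference from -0.029 to 0.19 (-0.05 with all arrays) and the number of all genes called from 4 to 2453, which was reached without Ovol2 BT replicate 1; leaving out Ovol2 BT replicate 2 gave 107, and leaving out control replicate 1 gave 7. Over all genes 10 were called with median centring, 0 with cyclic loess (673 at an unadjusted p under 0.05), 0 without the trend (601) and 9 with the replicate block; the cause was not tested. With the replicate block no member was called and the median stayed at -0.05. Replicate gaps of the genotypes correlated at -0.17 across genes. As Ovol2 BT replicate 2 stood apart, this value cannot tell whether replicate numbers mark pairs. The labels do not say that they do, so the numbers are not taken as pairs. A crossed pairing, added after seeing the data, called 5 genes and 0 members. Egf and Epgn were below the 50th percentile filter. With 1 array left out, differences changed sign for Ereg (-1.30 to 0.42), Btc (-0.38 to 1.01), Tgfa (-0.029 to 0.32), Hbegf (-0.10 to 0.010), Egf (-0.077 to 0.25), Erbb2 (-0.29 to 0.047), Adam10 (-0.93 to 0.089), Socs4 (-1.17 to 0.14) and Ovol1 (-0.11 to 0.24). For Hbegf, Egf and Erbb2 this was without Ovol2 BT replicate 1, for Egf and Erbb2 also without control replicate 2, and for Tgfa without control replicate 1. They kept their sign for Epgn (0.49 to 1.47), Egfr (-0.22 to -0.07) and Erbb3 (-0.31 to -0.03). Without Ovol2 BT replicate 1, 13 pathway genes were called: Etv4 (1.63), Spred1 (-1.11), Sos2 (-0.96), Pik3ca (-1.001), Adam10, Socs4, Adam17, Braf, Klf6, Lrig2, Nras, Pik3r1 and Sos1. So was Ttr (0.62). Without Ovol2 BT replicate 2, the differences were 1.55 for Ttr, 1.32 for Prr9 and 1.31 for Slc7a11, genes chosen for their likeness to Epgn. Ovol2 missed the threshold with cyclic loess (4.99) and without the trend (5.01). With 2 arrays a genotype, differences smaller than the replicate gaps cannot be resolved.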

Other observations

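The genes on either side of the ligand block on chromosome 5 were looked at after the values of Epgn, Ereg and Btc were seen. Mthfd2l, next to Epgn, encodes a mitochondrial folate enzyme. It read 579 and 516 on the Ovol2 BT arrays and 699 and 704 on the control arrays, a difference of -0.35 (SE 0.18, limma adjusted p = 0.906). Parm1, next to Btc, encodes a mucin-like membrane protein. It read 1539 and 1781 on the Ovol2 BT arrays and 1302 and 1358 on the control arrays, a difference of 0.31 (SE 0.18, limma adjusted p = 0.906). The replicate gaps of both flanking genes (0.09 and 0.13 on average) were below the median of all genes, unlike those of Ereg and Btc.

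The 3 genes closest to Ereg in pattern over the 4 arrays, also chosen after its values were seen, were Prps2 (distance 0.32), Hccs (0.33) and Mrgprb2 (0.47). Prps2, which encodes a phosphoribosyl pyrophosphate synthetase, and Hccs, which encodes the enzyme that attaches heme to cytochrome c, are both on the X chromosome. Hccs had log2 levels of 10.63 and 8.56 on Ovol2 BT replicates 1 and 2 and 10.81 and 9.58 on control replicates 1 and 2. It was thus high on the arrays with Y-linked signal, which follows from its choice for likeness to Ereg. The genes closest to Btc were Mrgprb13 (0.28), Atp1b4 (0.50) and Ccdc69 (0.51). Atp1b4 is also on the X chromosome, Mrgprb13 is on chromosome 7 and Ccdc69 on chromosome 11. Mrgprb2, a receptor of mast cells, and Mrgprb13 belong to the same receptor family.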
